A study of Homo sapiens with 8 samples.

Results

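The locus described here is made of 4 genes of chromosome 9p24: JAK2, PLGRKT, CD274 and PDCD1LG2. They were chosen by name from a RefSeq table with 20037 protein-coding genes, with peak numbers around CD274 in these data already known, so the differences between treatments below are a description and carry no test. Each gene was read with 50 kb either side of its body. The windows of PLGRKT, CD274 and PDCD1LG2 overlap, so the 4 windows form 2 stretches, chr9:4934390-5179948 around JAK2 and chr9:5307971-5621282 around the other genes (hg38). The 8 peak lists held between 5 and 14 peaks in these stretches, out of 22133 to 50347 peaks in a whole list.

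The lists come from ATAC-seq, in which a transposase cuts accessible chromatin, in H1975 and HCC44. Both are established human lung cancer cell lines, labelled wild type with no further genotype, and the gene copy number of 9p24 in them was not analysed here. Each line was treated for 96 h either with DMSO, the solvent, or with ACBI1, a degrader of SMARCA2, SMARCA4 and PBRM1, at a dose that the labels give as 1 mM, and each of the 4 groups had 2 replicates. The labels do not say whether replicates were separate cultures, so the spread between them may be technical.

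CD274 encodes PD-L1 and PDCD1LG2 encodes PD-L2, the ligands of the inhibitory receptor PD-1 on T cells. JAK2 is a kinase of cytokine receptors, among them the interferon gamma receptor. Interferon gamma acts through JAK1, JAK2 and IRF1, and it is the best known inducer of CD274 in tumour cells. PLGRKT encodes a plasminogen receptor and lies between JAK2 and CD274, close to the CD274 start and on the opposite strand. The annotated body of the lncRNA INCR1 runs through PDCD1LG2. SMARCA2 and SMARCA4 are the ATPases of SWI/SNF complexes, which move nucleosomes at enhancers and promoters.

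The promoter of CD274 is printed here because its start is the best defined in the locus and a peak covered it in all 8 lists. The stretch is the 250 bases before the annotated start, chr9:5450292-5450541 on the plus strand (RefSeq, GRCh38.p14), and the capitals mark 2 overlapping matches to the core of the interferon-stimulated response element, which IRF factors bind.
CD274 promoter: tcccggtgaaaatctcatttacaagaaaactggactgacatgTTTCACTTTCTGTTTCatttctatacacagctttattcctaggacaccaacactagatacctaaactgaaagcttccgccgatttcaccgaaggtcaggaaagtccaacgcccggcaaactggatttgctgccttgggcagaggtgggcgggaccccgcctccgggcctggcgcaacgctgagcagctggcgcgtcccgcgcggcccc

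The search used 6 motifs on both strands, and the core was taken as GAAA, any 2 bases and GAAA, which reads TTTC, 2 bases and TTTC on the other strand. In CD274 it matched from 208 to 199 and from 202 to 193 bases before the start, and 2.70% of 22078 protein-coding promoter windows of the same length held a match. A STAT-type site (TTCNNNGAA) matched from 125 to 117 bases before the start, where 5.93% of all windows held one. A GC box (GGGCGG) matched from 63 to 58 bases before it, where 53.7% did. The AP-1 letters (TGANTCA), the TEAD letters (GGAATG) and the E-box (CACGTG) were not found in this window. The 2 other sites are shown with their surroundings, with the match in capitals.
CD274 STAT-type site: cttccgccgatTTCACCGAAggtcaggaaa
CD274 GC box: ttgggcagaggtGGGCGGgaccccgcctcc

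Promoter entries were found for 3 of the 4 genes, CD274, PLGRKT and JAK2. The PLGRKT window held none of the 6 motifs. JAK2 has 4 annotated starts, and 1 motif was found in their windows, a GC box before the third start at chr9:4985134-4985139, which the JAK2 peak covered in all 8 lists.
JAK2 GC box: tcgaagctagcaGGGCGGcgaagccagtgt

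Around CD274, each of the 4 DMSO lists held 6 peaks and each of the 4 ACBI1 lists held 3. The groups did not overlap in either line, and the 3 peaks left were those at the starts of PLGRKT, CD274 and PDCD1LG2. Such an order was common over the genome. Fewer peaks in each ACBI1 list than in each DMSO list were found at 43.3% of protein-coding genes for H1975 and at 55.1% for HCC44, and the opposite order at 1.45% and 1.79%. Among genes with the same mean number of peaks with DMSO as CD274, the shares were 61% in H1975 and 73.4% in HCC44. In HCC44, PDCD1LG2 went from 7 and 7 peaks in the DMSO lists to 2 and 2 in the ACBI1 lists, and 74.2% of genes with its DMSO number had the same order. In H1975, PDCD1LG2 went from 4 and 3 peaks to 2 and 2, and 43.5% of such genes did.

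The PLGRKT and CD274 windows share peaks. In H1975 it had 4 and 4 peaks under DMSO against 2 and 2 under ACBI1, and 6 and 5 against 3 and 3 in HCC44. Among genes with its DMSO number the shares with fewer were 54.2% in H1975 and 65% in HCC44. JAK2 stood apart from the other genes in that its window held a single peak in all 8 lists. Of genes with a mean of 1 peak with DMSO, 19.8% in H1975 and 23.4% in HCC44 had fewer with ACBI1. The JAK2 peak lay at the gene's start, and from there no list held a peak over the next 244603 bases, chr9:4986073-5230675, which contain the rest of the JAK2 body. A stretch without listed peaks is not a measurement of closed chromatin. What is listed depends on depth, on mapping and on the caller's threshold. Depth, mapping and the caller's settings are not known here, and no list held a peak with −log10 q below 10.0.

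**Figure D1:**
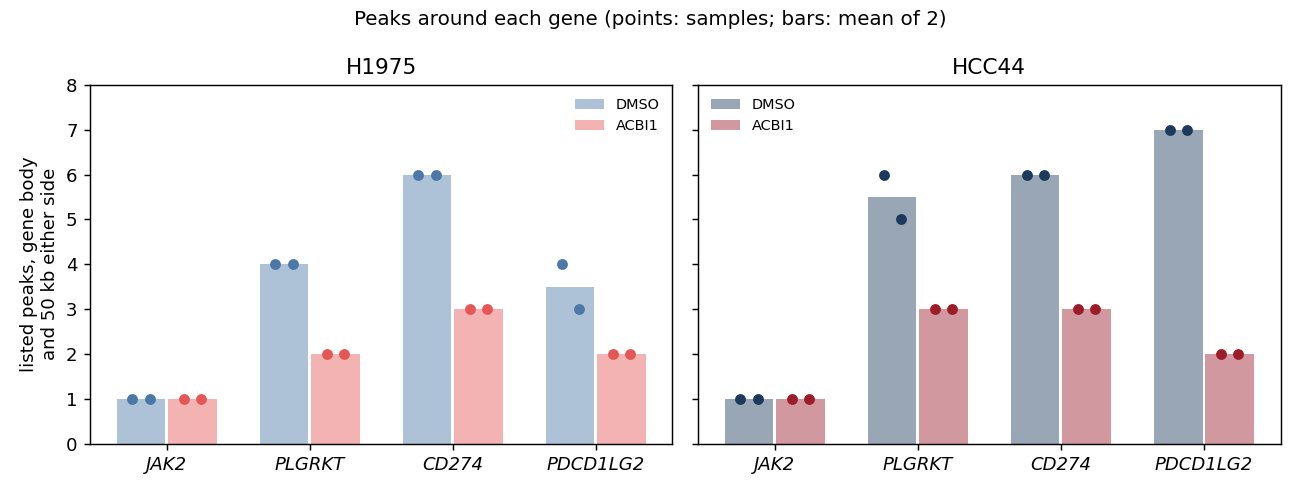
Listed peaks in the body and 50 kb either side of each gene, in H1975 (left) and HCC44 (right). Points are samples and bars are means of 2. CD274 has 6 peaks in every DMSO sample and 3 in every ACBI1 sample, and JAK2 has 1 in all.

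Counting each peak once, the H1975 lists held 9 and 8 peaks of the locus under DMSO, against 5 and 5 under ACBI1. The HCC44 lists held 14 and 13, against 6 and 6. The means were 8.5 ± 0.707 and 5 ± 0 in H1975 and 13.5 ± 0.707 and 6 ± 0 in HCC44 (SD, n = 2 each). In both lines the ACBI1 lists lay below the DMSO lists, by more than the spread between replicates. The whole lists were shorter with ACBI1 too. The locus kept 58.8% of its DMSO number in H1975, where the whole list kept 58.9%. In HCC44 the locus kept 44.4% and the whole list 51.0%.

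The difference depended on how the lists were cut. When the strongest 22133 peaks by −log10 q were taken from every list, so that all lists were equally long, the locus held 4 and 4 peaks in the DMSO lists of H1975 against 5 and 5 in its ACBI1 lists, and 3 and 6 against 6 and 5 in HCC44. The difference of the means was then 1 in both lines, against −3.5 in H1975 and −7.5 in HCC44 for the full lists. Around CD274 it became 0 in H1975 and −0.5 in HCC44. A minimum −log10 q of 20 for every list left −1 in H1975 and −5.5 in HCC44 for the locus. The share of all genes with fewer peaks also fell with lists of equal length, to 11.2% in H1975 and 12.9% in HCC44.

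The covered length followed the counts. In H1975 peaks covered 6834 and 4300 bases of the locus with DMSO and 3854 and 2428 with ACBI1, so the groups did not overlap but lay close, with a difference of means of −2426 bases against a pooled SD of 1454. Without H1975 DMSO replicate 1 that difference was −1159 bases, and without DMSO replicate 2 it was −3693. In HCC44 they covered 10652 and 10802 bases with DMSO and 4498 and 4315 with ACBI1, a difference of −6320.5 bases against a pooled SD of 118. With equally long lists the differences were −273.5 bases in H1975 and −1092 in HCC44.

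**Figure D2:**
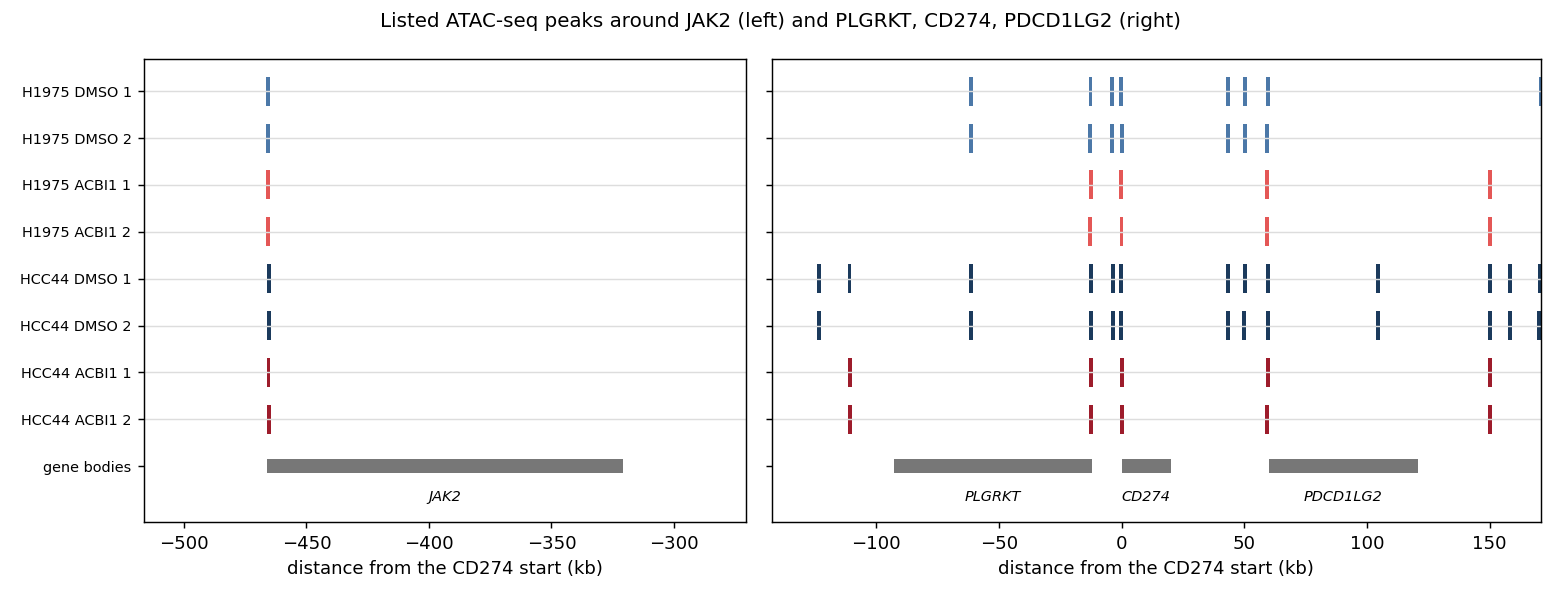
Every listed peak around JAK2 (left panel) and around PLGRKT, CD274 and PDCD1LG2 (right panel), 1 row per sample, with gene bodies in grey; x is the distance from the CD274 start in kb, and narrow peaks are drawn at a minimum width. The peaks at the 4 gene starts are present in all 8 rows, and most of the others are present only in the DMSO rows.

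The peaks of the 8 lists fell into 14 regions once overlapping peaks were merged. A region was called retained in a line when all 4 lists had a peak in it, lost when both DMSO lists and neither ACBI1 list had one, and gained in the reverse case. The 4 regions with a peak in all 8 lists were the starts of JAK2, PLGRKT, CD274 and PDCD1LG2. Over the genome, 92.9% of regions within 1 kb of a gene end or start with a peak in both DMSO lists were retained in H1975, and 88.1% in HCC44, while 4.23% and 8.73% were lost. Of regions elsewhere with a peak in both DMSO lists, the locus lost 5 of 5 in H1975 and 8 of 9 for HCC44, where the genome-wide shares were 50.2% and 63%. Over regions of both kinds the genome-wide shares lost were 37.2% and 49.2%, against 5 of 9 and 8 of 13 in the locus. The genome-wide regions were merged over the 4 lists of a line, those of the locus over all 8. The genome-wide shares were not matched for peak strength.

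The same 5 regions were lost in H1975 and in HCC44. The first lay inside the PLGRKT body at chr9:5389015-5389589, 61.2 kb before the CD274 start. Its peak was 204 and 206 bases wide with DMSO in H1975 and 367 and 575 in HCC44, and in rank by −log10 q it stood at 95.8% and 85.8% of the list in H1975 and at 64.2% and 72.5% in HCC44, where 0% is the strongest peak of the list. By that measure it was among the weaker peaks of every list that held it. By the authors' fold enrichment it stood at 60.3% and 39.7% in H1975 and at 16.0% and 35.7% in HCC44.

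The second, chr9:5446550-5447104, lay between the PLGRKT and CD274 starts, 3.72 kb before the latter, and in no gene body. The authors' fold enrichment there was 3.51 and 4.33 with DMSO in H1975 and 2.94 and 2.83 in HCC44, and its ranks of 86.2% to 92.5% were near the end of all 4 DMSO lists. With a minimum −log10 q of 20 no list held it.

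The next region, chr9:5493176-5494360, was, by −log10 q, the strongest of those lost. It lay 43.2 kb after the CD274 start, between the CD274 and PDCD1LG2 bodies and inside INCR1. Its −log10 q was 53.4 and 26.3 with DMSO in H1975 and 54.8 and 37.8 in HCC44, which placed it at 35.4% and 73.1% of the H1975 lists and at 19.0% and 33.1% of the HCC44 lists. No ACBI1 list had a peak there. It was also the only region still lost when all lists had equal length, in HCC44. In H1975 it was then held by 1 of the 2 DMSO lists. With a minimum −log10 q of 20 it was lost in both lines. In 3 of the 4 DMSO lists its −log10 q exceeded that of the peak at the CD274 start in the same list; the exception was H1975 DMSO replicate 2, with 26.3 against 63.1.

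A neighbour of this region, chr9:5500045-5501205, 50.1 kb after the CD274 start, was weaker. Its −log10 q was 13.97 and 14.55 with DMSO in H1975 and 24.9 and 20.7 in HCC44. The last lost region, chr9:5620413-5622331, lay 171 kb after the CD274 start at the edge of the window. In H1975 DMSO replicate 2 its peak began 173 bases past the window, so it entered the region but not that sample's count.

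HCC44 had 3 more lost regions, none of which had a peak in any H1975 list. These were chr9:5327042-5327520 inside RLN2, chr9:5554806-5555199 inside the PDCD1LG2 body, 104 kb after the CD274 start, and chr9:5608620-5609221 past the end of PDCD1LG2. The region in RLN2 had a fold enrichment of 8.54 and 8.61, among the highest 3.09% and 0.907% of the DMSO lists by that measure, while by −log10 q it stood at 53.3% and 43.3%. The 2 measures thus ranked this narrow peak, 479 and 387 bases wide, very differently.

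Not every distal region was missing with ACBI1. The region chr9:5600355-5600769, in INCR1 and past the end of PDCD1LG2, had no peak in the H1975 DMSO lists and a peak of 340 and 305 bases in the H1975 ACBI1 lists, so it was gained there, as were 1.35% of all merged regions of that line. HCC44 gained none of the 14, against 2.28% of its merged regions. In HCC44 it had a peak in all 4 lists. There it stood at 90.1% and 80.7% of the DMSO lists by −log10 q and at 41.6% and 53.4% of the shorter ACBI1 lists. The authors' −log10 q was 15.5 and 18.3 with DMSO and 30.6 and 23.9 with ACBI1, which is not a measure of change between libraries. A further region, chr9:5339491-5339883 inside RLN1, was not distal, as it lay within 1 kb of a boundary of RLN2. This RLN1 region had a peak in 1 HCC44 DMSO list and in both HCC44 ACBI1 lists, and in no H1975 list.

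**Figure D3:**
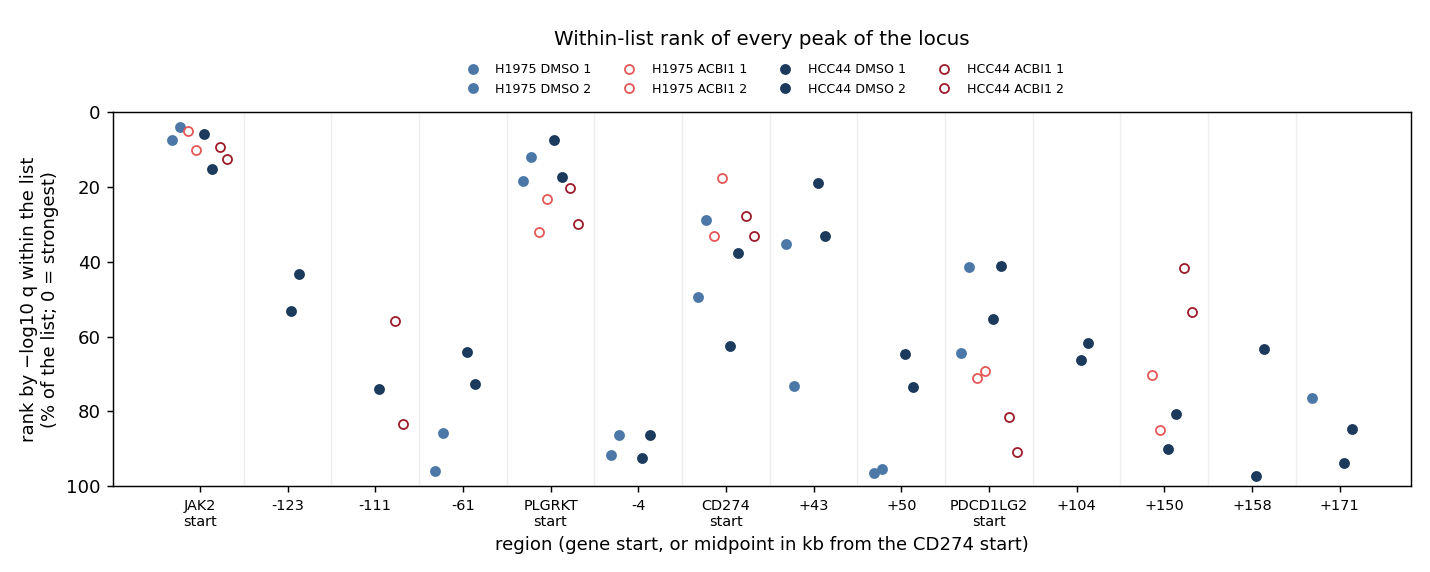
Rank of every peak of the locus within its own list by −log10 q, as a percentage of the list with the strongest peaks at the top; filled points are DMSO samples, open points are ACBI1 samples, and regions run along x in map order. The JAK2 start lies within the first 15.3% of every list, and most regions without open points lie in the lower part of the DMSO lists. Ranks in lists of different lengths do not show a change.

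By −log10 q the start of JAK2 held the strongest peak of the locus in every list. Its −log10 q was 115 and 140 with DMSO and 176 and 117 with ACBI1 in H1975, and 77.1 and 52.0 with DMSO and 64.8 and 56.2 with ACBI1 in HCC44. By that measure it ranked within the strongest 3.88% to 15.3% of each list, while by the authors' fold enrichment it stood at 23.3% to 79.8%. Its width was 1382 and 1241 bases with DMSO and 1275 and 1183 with ACBI1 in H1975, and 1665 and 1678 against 1417 and 1608 in HCC44. The ranges of the treatments overlapped in H1975 and lay close together in HCC44. In all 8 lists the peak covered the annotated starts at positions 4985086 and 4985272, and no list had a peak at the start at 5041532, inside the gene.

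By −log10 q the PLGRKT start had the next strongest peak among the gene starts in every list except H1975 ACBI1 replicate 2, where the CD274 start did, with ranks from 7.51% to 32.1%. Its peak was 1074 and 720 bases wide with DMSO and 990 and 402 with ACBI1 in H1975, where the treatments overlapped. In HCC44 it was 1191 and 1204 bases wide with DMSO and 940 and 934 with ACBI1. The HCC44 peaks with ACBI1 were shorter on the side inside the gene, ending 796 and 860 bases from the outermost start against 1050 and 1050 with DMSO.

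At the CD274 start the peak had one width in both HCC44 DMSO lists and a smaller one in both HCC44 ACBI1 lists. It was 1117 and 1101 bases wide with DMSO and 516 and 610 with ACBI1, a mean of 1109 ± 11.3 against 563 ± 66.5 (SD, n = 2 each). The DMSO peaks began 874 and 872 bases before the start and the ACBI1 peaks 189 and 191 bases before it, while the ACBI1 peaks reached further into the gene, to 326 and 418 bases after the start against 242 and 228. In H1975 the widths were 911 and 321 bases with DMSO and 732 and 318 with ACBI1. There replicate 1 was wide and replicate 2 narrow under both treatments, and no difference between treatments was seen beyond that spread.

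The interferon-response letters printed above lay inside the CD274 peak of both HCC44 DMSO lists and outside that of both HCC44 ACBI1 lists. Those ACBI1 peaks began 10 and 8 bases past the end of the first match, and 4 and 2 past the end of the second. In H1975 the letters were inside the peak of replicate 1 with either treatment and outside that of replicate 2 with either treatment. The STAT-type site and the GC box lay inside the CD274 peak in all 8 lists. An edge of a broad peak is set by the caller and by depth, so distances of a few bases between an edge and a motif are a description of these lists.

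By rank the CD274 peak stood at 49.3% and 28.9% of the H1975 DMSO lists and at 33.2% and 17.5% of the ACBI1 lists. In HCC44 it stood at 62.5% and 37.7% with DMSO and at 27.7% and 33.0% with ACBI1. Its −log10 q was 40.4 and 63.1 with DMSO and 67.5 and 94.5 with ACBI1 in H1975, and 25.8 and 35.2 with DMSO and 41.7 and 36.5 with ACBI1 in HCC44. In both lines the lower value with ACBI1 lay above the higher with DMSO. Since −log10 q depends on depth and background in each library, these values are not a measure of change.

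The peak at the PDCD1LG2 start was the weakest of the gene starts by −log10 q in every list except HCC44 DMSO replicate 1, and the one whose width differed most. In H1975 it was 1298 and 557 bases wide with DMSO and 517 and 220 with ACBI1, so the groups did not overlap but their nearest values, 557 and 517, were close. In HCC44 it was 1373 and 1396 bases wide with DMSO and 841 and 407 with ACBI1. The mean with ACBI1 was 39.7% of that with DMSO in H1975 and 45.1% in HCC44. Over all retained regions at gene boundaries the median was 89.0% in H1975 and 86.4% in HCC44, and 0.535% and 3.60% of those regions had a share as low as the PDCD1LG2 start. The CD274 start had 85.2% in H1975 and 50.8% in HCC44, where 5.67% of retained boundary regions had a share as low. For the JAK2 start the shares were 93.7% and 90.5%, and for the PLGRKT start 77.6% and 78.2%. The retained boundary regions were not matched for peak strength, so the place of a start among them is a description and carries no test.

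The edge of the PDCD1LG2 peak nearest the gene varied between lists. Both HCC44 DMSO peaks and 1 of the 2 H1975 DMSO peaks crossed the annotated start at 5510531, by 275 to 346 bases. The other H1975 DMSO peak ended 412 bases before it. Of the 4 ACBI1 peaks, 1 in HCC44 reached 4 bases past it and 3 ended 652, 466 and 354 bases before it. On the far side the HCC44 peaks began 1059 and 1049 bases before the start with DMSO and 836 and 760 with ACBI1. With a minimum −log10 q of 20, neither HCC44 ACBI1 list had a peak at the PDCD1LG2 start and both DMSO lists did, so the region was then lost in that line.

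**Figure D4:**
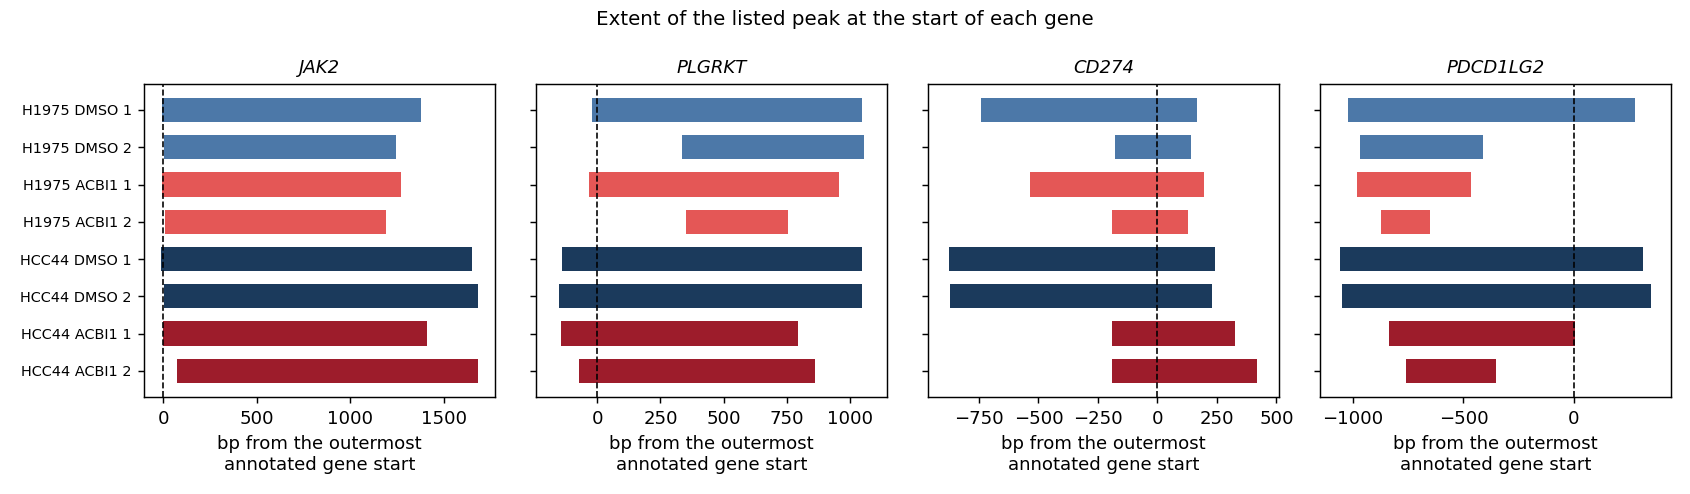
Extent of the peak at the start of each gene in each sample, in bases from the outermost annotated start (dashed line), with PLGRKT drawn along its own strand. In HCC44 the CD274 and PDCD1LG2 peaks are shorter in the ACBI1 samples than in either DMSO sample; in H1975 replicate 2 is shorter than replicate 1 at PLGRKT, CD274 and PDCD1LG2 under both treatments.

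The lines were compared at the locus as a whole, a contrast that the choice of genes did not start from. Peak numbers around CD274 were known at that choice and are part of the count compared, so the contrast was not independent of it. The HCC44 lists held the larger number under DMSO, 14 and 13 against 9 and 8, and under ACBI1, 6 and 6 against 5 and 5. The difference averaged over treatments was 3 peaks against a pooled SD between replicates of 0.5 (exact permutation test within treatments, two-sided, p = 0.0556, the smallest p that 36 arrangements can give). The test could therefore not give a p below 0.05. The difference was 5 with DMSO and 1 with ACBI1. It was 0.5 with equally long lists and 0 with a minimum fold enrichment of 5, so it too depended on how the lists were cut. It also depended on the window, with 0.5 for 10 kb either side, 4.75 for 100 kb and 5 over the whole span from JAK2 to PDCD1LG2. Over the genome, 33.3% of protein-coding genes had more peaks in both HCC44 DMSO lists than in both H1975 DMSO lists, and 16.1% did with ACBI1. Those shares are for windows of single genes, whereas the locus joins 4 windows. By that measure PLGRKT and PDCD1LG2 had more in HCC44 with DMSO. CD274, with 6 peaks in every DMSO list, and JAK2, with 1, did not. With ACBI1 only PLGRKT did. The 4 regions found in HCC44 lists alone were those in RLN2, in RLN1, inside PDCD1LG2 and 158 kb after the CD274 start. Whether the change with ACBI1 differed between the lines was not tested.

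Genes within 500 kb of the span from JAK2 to PDCD1LG2 gave 16 neighbours. Some of their windows overlap one another or the locus, so some counts below repeat peaks already counted. The RIC1 window held the lost region chr9:5620413-5622331, and those of RLN1 and RLN2 reached the lost region chr9:5389015-5389589. The INSL6 window held the JAK2 peak. In H1975, 4 of 16 had fewer peaks in both ACBI1 lists and 0 had more, and in HCC44 11 of 16 had fewer and 0 had more, where 43.3% and 55.1% of all protein-coding genes had fewer. The median difference was −0.5 peaks in H1975 and −2 in HCC44, against −1 over all protein-coding genes in both lines. Past PDCD1LG2, at RIC1, ERMP1 and BRD10, fewer peaks were listed in both lines. RIC1 had 6 and 5 against 3 and 3 in H1975 and 5 and 5 against 2 and 2 in HCC44. On the same side the groups overlapped for RANBP6 in both lines and for MLANA in H1975. MLANA had 4 and 4 against 1 and 1 in HCC44. On the far side of JAK2, SPATA6L, PLPP6, CDC37L1 and AK3 had 2 to 3 peaks in each H1975 list. The number was the same there under both treatments, and in HCC44 the groups of each gene overlapped. RCL1 next to JAK2 had 4 and 2 peaks against 2 and 2 in H1975, and 4 and 5 against 2 and 1 in HCC44. GLIS3, a transcription factor gene at the far end, had 19 and 19 peaks against 7 and 5 in H1975 and 21 and 21 against 5 and 5 in HCC44.

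A list of 28 genes around PD-L1 and JAK signalling held the interferon gamma receptor, the other JAK kinases, STAT factors, IRF1, negative regulators, PD-L1 partners and cytokine receptors that signal through JAK2. In H1975, 14 of 28 had fewer peaks in both ACBI1 lists and 0 had more, and in HCC44 21 of 28 had fewer and 0 had more, with median differences of −1.5 and −2.25 peaks. The same genome-wide shares of 43.3% and 55.1% and median of −1 apply, so the H1975 count lay near the background. In HCC44 the share rose with the DMSO number, from 23.4% of genes with that of JAK2 to 74.2% with that of PDCD1LG2. No share matched in this way was taken for the list, so its HCC44 count cannot be set apart from the background. The windows of STAT3, STAT5A and STAT5B overlap, so their counts are not separate. PDCD1, the gene of the receptor PD-1, had no listed peak in any list and is named for that reason. IRF1, a transcription factor that acts at the CD274 promoter, had 6 and 4 peaks against 3 and 3 in H1975, and 10 and 9 against 3 and 3 in HCC44. IFNGR1, the ligand-binding chain of the receptor, had 2 and 2 against 1 and 1 in H1975 and 6 and 6 against 1 and 1 in HCC44.

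For JAK1 the groups did not overlap in either line. JAK1, the partner of JAK2 at the interferon gamma receptor, had 8 and 9 peaks against 7 and 6 in H1975 and 10 and 11 against 8 and 8 in HCC44. IL6ST, the shared receptor chain of the IL-6 family, had 5 and 4 against 2 and 1 in H1975 and 8 and 8 against 1 and 1 in HCC44. LEPR, the leptin receptor, had 4 and 4 against 2 and 1 in H1975 and 7 and 6 against 2 and 2 in HCC44. For CMTM6, which keeps PD-L1 at the cell surface, the groups overlapped in H1975, with 3 and 4 against 3 and 2, and not in HCC44, with 4 and 5 against 3 and 3. CD80, which binds PD-L1 on the same membrane, had 2 in each H1975 list, and 5 and 4 with DMSO against 4 and 4 with ACBI1 in HCC44.

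**Figure D5:**
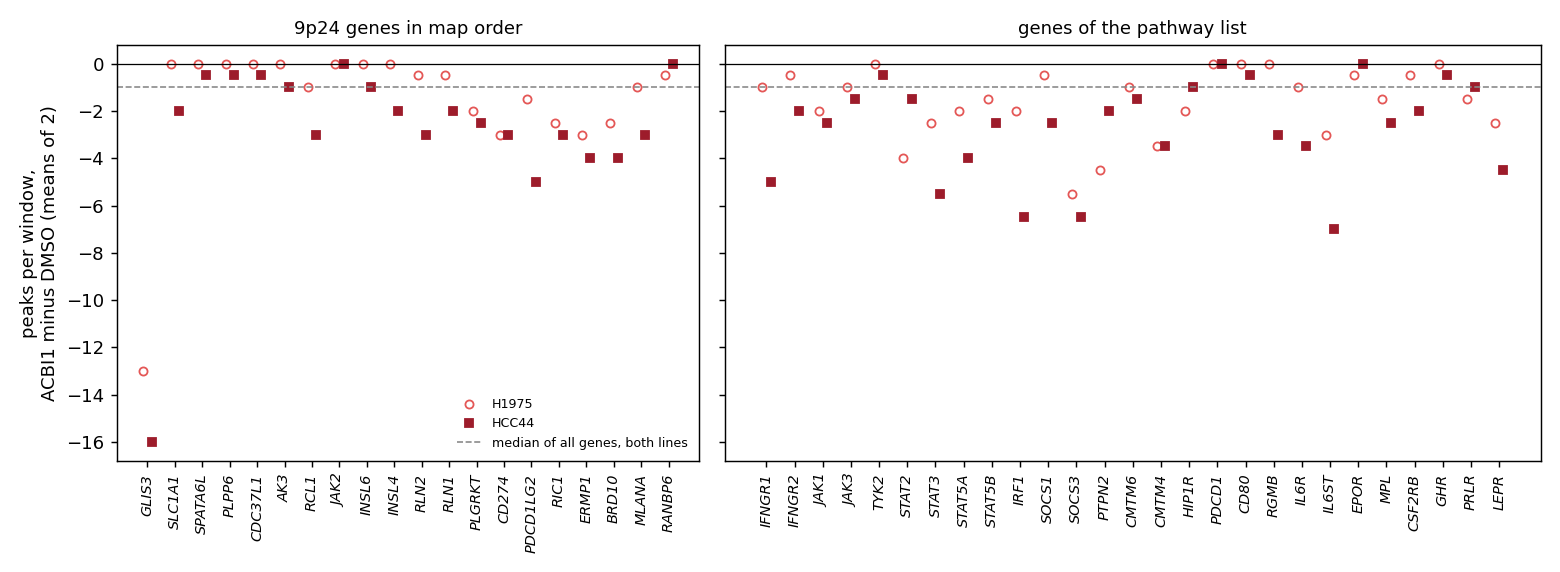
Difference in listed peaks per window, ACBI1 minus DMSO (means of 2), for the genes of 9p24 in map order (left) and for the list of 28 genes except 1 that is not shown (right); open circles are H1975, squares are HCC44, and the dashed line is the median of all protein-coding genes. JAK2 lies at 0 in both lines, and no gene shown lies above 0.

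The genes whose covered length over the 8 samples was most like that of CD274 were sought among 17322 genes more than 1 Mb from the locus. They were CEBPA (Pearson r = 0.997), CDC20 (0.997), S100Z (0.996), TMEM164 (0.995) and PTPN3 (0.994). For CEBPA, a transcription factor gene, peaks covered 3013 and 2148 bases with DMSO and 1606 and 932 with ACBI1 in H1975, and 3674 and 4170 against 1610 and 1593 in HCC44. For JAK2 they were UBE2G2 (0.990), ITGB3BP (0.984), GOLGA6C (0.982), SUMO3 (0.980) and GLIPR1 (0.979), of which UBE2G2 and SUMO3 are neighbours with shared peaks. These correlations over 8 samples share the libraries and their depth, and they are the highest of many, so they describe likeness only.

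The cell type labels were checked at marker genes. EPCAM, KRT8, KRT18 and KRT19, genes of epithelial cells, had a peak within 1 kb of a gene end or start in all 8 lists, and CDH1 in 7. NKX2-1, a lung lineage factor, had one in 4 of 4 H1975 lists and in 1 of 4 HCC44 lists. Of the surfactant genes, SFTPC had one in 8 lists and SFTPB in 2. Of the leukocyte genes, PTPRC had one in 0 lists, CD3E in 3 and CD14 in 8. Neither a peak nor its lack shows the level of the RNA or protein of any gene named here.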

How the data were processed

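Per the submitters' processing notes, BWA and the build hg38 were used; the peak caller, its settings and the filters are not given in the sources used here. The authors deposited 1 peak list per sample, with 9 columns in the broadPeak layout, so replicates were not pooled. The fold enrichment is the authors' ratio over the caller's background. The authors' p-value and q-value were deposited as −log10 values, and the lowest −log10 q of a list lay between 10.0 and 10.2. Depth in reads is unknown. These values were used to rank or filter peaks within a list, and where they are printed for both treatments they are not a measure of change.

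Gene positions came from RefSeq (GRCh38.p14). A peak was counted where it overlapped a window by 1 bp or more, and peaks were merged into regions by the same overlap. Samples were grouped by labelled line and treatment. The members and lists were chosen with earlier results of these data known. Named genes were the 4 members, neighbours within 500 kb, 8 genes of the pathway list, and the 5 genes most like CD274 and JAK2 by Pearson r. Of these 8 pathway genes 1 is not reported here, nor is 1 leukocyte marker, and PDCD1 was named after its values were seen. The only test was the exact permutation test between lines. The functions recovered planted peaks when tested on simulated data. Alternatives were a minimum −log10 q of 20, a minimum fold enrichment of 5, equally long lists, joining at 1200 bp, windows of 10 and 100 kb, placement by midpoint, 50% cover, a replicate block and each replicate left out in turn; the whole span from JAK2 to PDCD1LG2 was added after seeing the data. The scripts ran under Python 3.11.15 with pandas 2.3.3 and numpy 2.4.6; matplotlib 3.10.9 made the plots.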

Additional observations from a re-analysis of the deposited data

How the results depend on the processing

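All differences here are ACBI1 minus DMSO, in peaks unless bases are named. With a minimum −log10 q of 20 they were −1 (H1975) and −5.5 (HCC44) for the locus, −5414 bases in HCC44, 0 around PLGRKT and −1 around CD274 in H1975, and −3.5 around PDCD1LG2 in HCC44; regions lost and gained in H1975 were 2 and 0, and regions retained and gained in HCC44 were 3 and 1. With a minimum fold enrichment of 5 they were −2 and −6 for the locus, and in HCC44 −4450.5 bases and −0.5 around JAK2. They were −0.5 and −1 around PLGRKT, −1.5 and −1.5 around CD274 and −4.5 around PDCD1LG2 in HCC44. The 1 region then retained in HCC44 was chr9:5600355-5600769 in INCR1, and none of the 4 gene starts was. In H1975 the CD274 start was not retained either. Equally long lists turned the locus difference to 1 in both lines, that around PLGRKT to 0 and 1, around CD274 to 0 and −0.5, and around PDCD1LG2 to 1 and 0. Covered length then differed by −273.5 and −1092 bases, 11.2% and 12.9% of all genes had fewer peaks, 0 regions of the locus were lost in H1975, and in HCC44 2 were retained, 1 was lost and 2 were gained. The CD274 start in HCC44 and the PDCD1LG2 start in both lines were then not retained. By construction the equally long lists drop the weaker DMSO peaks.

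Windows of 10 kb gave −4 peaks and −3648.5 bases for the locus in HCC44, −1 and −1 around CD274, −2 around PDCD1LG2 in HCC44, and 26.2% and 34.7% of all genes. Windows of 100 kb gave −4.5 and −11 for the locus, −8716.5 bases in HCC44, −0.5 and −2 around JAK2, −3.5 and −6 around PLGRKT, −4 and −5 around CD274 and −3.5 and −6 around PDCD1LG2. The whole span gave −10 peaks and −7895.5 bases in HCC44. With 50% cover, 1 region was retained and 1 lost in H1975, and 3 were retained in HCC44. Where a region is wider than each peak in it, that cover is harder to reach.

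Leaving out each replicate gave −4 to −3 (H1975) and −8 to −7 (HCC44) for the locus, −3693 to −1159 and −6412 to −6229 bases, −2 to −2 and −3 to −2 around PLGRKT, −3 to −3 in both lines around CD274, −2 to −1 and −5 to −5 around PDCD1LG2, and 0 to 0 around JAK2. Regions retained in HCC44 were 5 to 6 and gained 0 to 1, the other region counts did not move, and the difference between lines was 2.75 to 3.25. Under other settings that difference was 0 (fold enrichment of 5), 0.5 (equally long lists; 10 kb), 2.25 (−log10 q of 20), 3.25 (midpoint), 4.75 (100 kb) and 5 (whole span). The replicate numbers pair no samples by the labels, and same-numbered lists of a line deviated together with r = 0.163 in H1975 and 0.0842 in HCC44 across genes. With a replicate block the difference between lines was again 3 (exact permutation test, p = 0.125, the smallest that 16 arrangements allow), and the differences in peaks and bases were identical by construction. Of 143 values under other settings and 80 that left out a replicate, 4 changed direction, each with equally long lists. A further 56 moved by more than a set margin. A change to 0 did not count as one of direction. Region counts, shares of genes and differences that were 0 in the main setting could not change direction.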

Other observations

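The stretch between the window of JAK2 and that of PLGRKT lay outside the counts above. It held the relaxin family gene INSL4 and part of RLN2, and nearly all of its peaks were in HCC44. At chr9:5230676-5231690, both HCC44 DMSO lists had a peak and neither ACBI1 list did. It covered position 5231419, an annotated end of the body of INSL4, a gene best known from the placenta. This was thus a region at a gene boundary that was lost in HCC44. Its peaks were 942 and 1015 bases wide, with −log10 q of 48.7 and 41.2. Those values exceeded the 25.8 and 35.2 of the CD274 start in the same lists. At chr9:5263690-5264168 all 4 HCC44 lists had a peak, 340 and 470 bases wide with DMSO and 348 and 405 with ACBI1. At chr9:5269136-5269621 both HCC44 DMSO lists had one and neither ACBI1 list did. H1975 had a single peak in this stretch, 244 bases wide, in ACBI1 replicate 1, at the place of a peak in HCC44 DMSO replicate 1.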
